A study of Homo sapiens with 12 samples.

Results

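The genes described here are 10 members of the BCL2 family, the proteins that decide whether the mitochondrial outer membrane is opened in apoptosis: BCL2, BCL2L1, BCL2L2, MCL1, BAK1, BOK, BCL2L11, BMF, BID and BAD. They were chosen by name and role, not by a measured value, though with earlier results of these data known. All 10 are among the 27514 genes listed. Of them 9 had a mean of at least 1 CPM (reads of a gene scaled to a common library total) over the 12 samples and so were among the 12680 genes tested. BOK was not. IMR32 is an established human neuroblastoma line with an amplified MYCN gene, and it was the sole line used. Its cells were electroporated with control siRNA (siCtrl), siRNA against MYCN (siMYCN), siRNA against HAND2 (siHAND2) or both targeting siRNAs at once (the combined knockdown), kept in ordinary growth medium with 10% fetal calf serum for 72 h and used for total RNA sequencing, with 3 samples per group. The sample titles name 1 siRNA per target, SiMYCN_2 and SiHAND2_3, so effects of an siRNA outside its target were not tested. The series' title states the question of which genes HAND2 and MYCN regulate in these cells. Nothing in the labels says that the 3 samples of a group were separate cultures, so the p-values measure only the spread between these samples, which may be technical.

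Mitochondrial apoptosis is set by binding between 3 kinds of BCL2 family protein. Anti-apoptotic members (BCL2, BCL-xL encoded by BCL2L1, BCL-w encoded by BCL2L2, and MCL1) hold pore formers such as BAK1 and BAX in check. BH3-only members (BIM encoded by BCL2L11, BMF, BID, BAD) carry the stress signal by occupying the groove of the anti-apoptotic proteins, and some of them also activate the pore formers directly. When pores open, cytochrome c reaches the cytosol and the caspases are activated. BCL2 is well known in neuroblastoma as a survival protein and as the target of the BH3-mimetic drug venetoclax, and MYC family proteins are known to make cells more prone to apoptosis. Gene-level values cannot separate splice forms with opposite roles, such as the long and short forms of BCL2L1, and say nothing of protein.

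MYCN and HAND2 are basic helix-loop-helix transcription factors. MYC family dimers are known for binding CACGTG, and HAND2 dimers bind the wider class CANNTG to which it belongs. Both motifs read the same class on either strand, and every CACGTG is also counted as a CANNTG. RefSeq promoters (GRCh38.p14, the 250 bases before and the first 50 after an annotated start) were matched by symbol for 8 of the 10 members, in 15 entries; MCL1 and BCL2L2 were not among them. CANNTG occurred in 7 of the 15 entries, against 68.68% of all 35116 promoters of that length in the table. The entries are not independent, since windows of BID and of BAD starts overlap, and by gene 4 of the 8 members had a match. CACGTG occurred in 2 of the 15, both of them starts of BID whose windows overlap, so that this is a single stretch of the genome seen from 2 starts; 7.26% of all promoters held it. The 250 bases before the start are shown for BCL2, BAK1, BMF and BID, the first 3 because they differed most over the 4 groups and BID because it carries CACGTG. They are written 5′ to 3′ on the gene's own strand, which is the minus strand for each, with every CANNTG match in capitals.
BCL2, chr18:63319770-63320019: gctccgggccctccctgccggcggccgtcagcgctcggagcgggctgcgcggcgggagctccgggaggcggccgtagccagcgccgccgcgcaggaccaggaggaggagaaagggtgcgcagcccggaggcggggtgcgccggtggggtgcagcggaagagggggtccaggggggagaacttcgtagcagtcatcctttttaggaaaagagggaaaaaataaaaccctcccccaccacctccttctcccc
BAK1, chr6:33580277-33580526: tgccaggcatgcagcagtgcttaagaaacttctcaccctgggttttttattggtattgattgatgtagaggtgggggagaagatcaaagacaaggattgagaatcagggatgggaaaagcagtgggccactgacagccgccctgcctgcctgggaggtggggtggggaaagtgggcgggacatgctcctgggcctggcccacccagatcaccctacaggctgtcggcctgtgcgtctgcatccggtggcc
BMF, chr15:40108880-40109129: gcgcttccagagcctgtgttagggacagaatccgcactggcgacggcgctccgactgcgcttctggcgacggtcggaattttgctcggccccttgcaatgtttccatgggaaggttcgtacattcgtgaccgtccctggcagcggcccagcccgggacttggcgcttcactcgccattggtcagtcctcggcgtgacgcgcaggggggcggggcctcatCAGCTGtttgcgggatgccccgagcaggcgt
BID, chr22:17773984-17774233: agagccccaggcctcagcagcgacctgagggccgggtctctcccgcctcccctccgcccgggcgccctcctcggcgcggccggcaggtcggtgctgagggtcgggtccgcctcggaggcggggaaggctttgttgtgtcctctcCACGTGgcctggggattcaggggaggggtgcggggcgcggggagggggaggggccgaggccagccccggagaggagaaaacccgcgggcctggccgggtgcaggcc
The BCL2 and BAK1 stretches hold no match in their full 300 bases. The BMF stretch holds 1, CAGCTG, whose first base lies at −31 from the start, and the window of a second BMF start, not shown, holds 3 (CAGGTG in 2 places and CAGTTG). The BID stretch holds 1, CACGTG, at −106. A match is a run of letters, not evidence of binding, and no binding was measured here.

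The library depths, read from the steps in the low values, were between 31.6 and 64.2 M reads, so that 3 reads amounted to between 0.0468 and 0.0949 CPM. MYCN was at 1009 ± 42.6 CPM (SD, n = 3) in siCtrl, 682 ± 22.8 after siMYCN and 482 ± 64.3 in the combined knockdown, so siMYCN left 67.5% of the control level. HAND2 was at 239 ± 15.3 CPM in siCtrl, 62.3 ± 7.06 after siHAND2 and 73.5 ± 11.1 in the combined knockdown. After siMYCN it was at 326 ± 7.50 CPM. The libraries differed in one way that touches every value below. The CPM had been scaled to a total larger than the listed genes, which took 65.1% ± 0.74 of the reads in siCtrl, 62.4% ± 0.98 after siMYCN, 59.4% ± 2.39 after siHAND2 and 51.4% ± 7.04 in the combined knockdown, from 58.4% in replicate 1 to 44.3% in replicate 3. Each knockdown differed from siCtrl with an exact permutation p of 0.1, two-sided, the smallest that 3 against 3 samples allow. The median log2 difference of all tested genes from siCtrl was 0.01 after siMYCN, −0.14 after siHAND2 and −0.28 in the combined knockdown. Most changes of the tested members are therefore given on 2 scales, as deposited and rescaled. Rescaled means with the samples brought to a common level through the ratio of their genes to a typical sample, where those medians are 0.01, 0.01 and 0.04. A change with no rescaled value beside it is as deposited. After rescaling MYCN was at 68.0% of siCtrl after siMYCN and 61.0% in the combined knockdown. Rescaled HAND2 was at 29.1% after siHAND2 and 39.2% in the combined knockdown. The 7 neuroblastoma markers summed to between 506 and 528 CPM in siCtrl and to at least 461 in every other sample, though TH stayed under 1 CPM in siCtrl. The 6 mesenchymal and fibroblast markers summed to between 15.5 and 17.1 CPM in siCtrl and to between 4.59 and 6.14 in the combined knockdown, with PRRX1 not above the added constant in any sample. The 4 immune markers summed to under 1 CPM in every sample, with CD3E not above the constant in any sample, the 3 endothelial markers to at most 2.82 and the 4 Schwann cell markers to at most 3.21. In bulk RNA, fewer cells of a kind and less RNA per cell cannot be told apart.

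**Figure D1:**
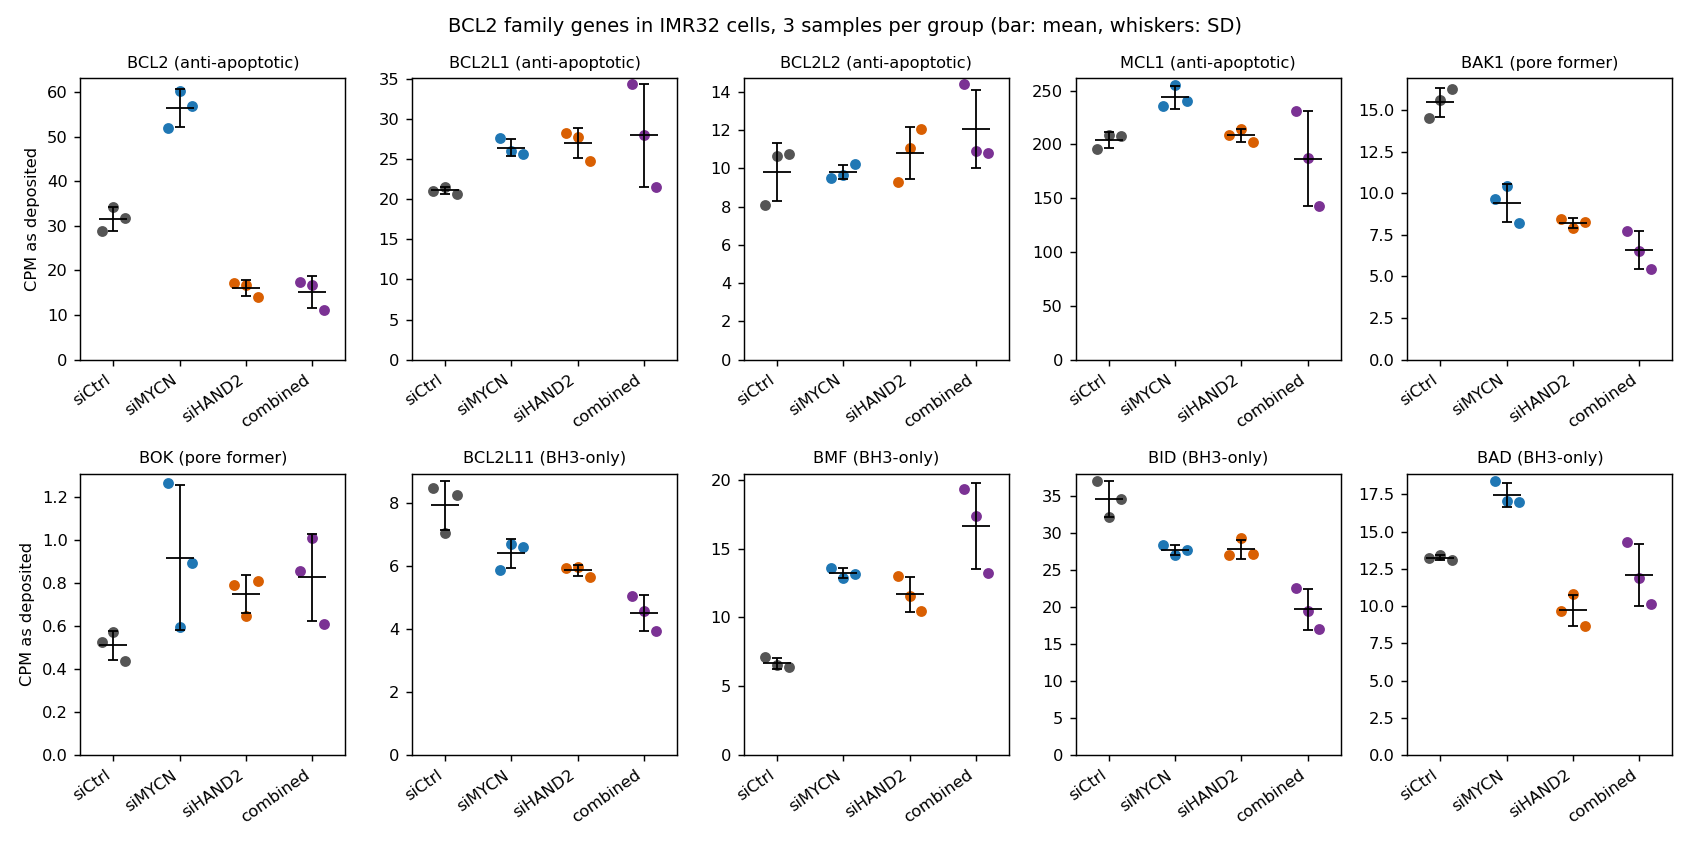
CPM as deposited (vertical axes from 0) of each of the 10 BCL2 family genes in the 4 groups; points are samples, bars means and whiskers SD, n = 3. BCL2 lies above the control samples after siMYCN and below them after siHAND2 and in the combined knockdown, BAK1 lies below them in all 3 knockdowns and BMF above them.

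BCL2 was the family member that differed most over the 4 groups (moderated F of limma 82.4, followed by BMF at 33.8 and BAK1 at 32.4). The gene lies on chromosome 18 at 60790579 to 60986614 (hg19, minus strand). It was at 28.7, 34.2 and 31.7 CPM in the siCtrl samples and at 51.9, 60.3 and 56.8 after siMYCN. After siHAND2 it was at 17.3, 16.8 and 14.1 CPM, and in the combined knockdown at 17.5, 16.8 and 11.1. All siMYCN samples were above all controls, and all samples of the other knockdowns were below them, with no overlap. Relative to the siCtrl mean this is 179% after siMYCN, 50.9% after siHAND2 and 48.0% in the combined knockdown (180%, 56.7% and 60.7% after rescaling). On the log2(CPM + 1) scale BCL2 rose by 0.82 (SE 0.14) after siMYCN, with an adjusted p of 4.6e-05 by limma with Benjamini-Hochberg adjustment over all genes tested. It fell by 0.93 after siHAND2 (adjusted p 4.5e-06) and by 1.03 in the combined knockdown (adjusted p 2.7e-07). The rescaled changes were 0.83, −0.78 and −0.69, with limma adjusted p of 6.3e-06, 8.3e-06 and 1.1e-05, and each of the 3 calls held with any 1 of the 12 libraries left out.

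In the combined knockdown BCL2 therefore stood near its level after siHAND2 alone. The combined against siHAND2 difference was −0.10 in log2, with a 95% interval from −0.38 to 0.18 and a limma adjusted p of 0.59. After rescaling it was 0.09, from −0.11 to 0.29 (adjusted p 0.45). Against siMYCN alone the combined knockdown was lower by a wide margin, with a log2 difference of −1.85 (limma adjusted p 2.4e-11; −1.52 after rescaling). If the 2 single changes had added up on the log2 scale, the combined change would have differed from their sum by 0. It differed by −0.92 (SE 0.19, 95% interval −1.31 to −0.52), an interaction with a limma adjusted p of 0.0070, and by −0.74 after rescaling (adjusted p 0.0042). This was the only member of the 9 tested with a called interaction on the deposited scale, where 4.01% of all genes were called. With any 1 library left out the BCL2 interaction kept its call, between −1.03 and −0.72, but with no filter on low genes it missed the threshold (adjusted p 0.089). The knockdowns were not equally deep alone and combined. MYCN was at 67.5% of siCtrl after siMYCN and 47.7% in the combined knockdown, and HAND2 at 26.0% after siHAND2 and 30.7% in the combined knockdown. The part of this in any interaction given here was not tested.

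The other anti-apoptotic genes did not share this pattern. BCL2L1, on chromosome 20 at 30252255 to 30311803 (hg19, minus strand), was at 21.0, 21.5 and 20.7 CPM in siCtrl and at 27.7, 25.9 and 25.6 after siMYCN. It was at 28.3, 27.7 and 24.8 CPM after siHAND2 and at 34.3, 28.0 and 21.5 in the combined knockdown. Each single knockdown lay above the controls without overlap, while the lowest combined sample fell inside the control range. BCL2L1 rose in log2 by 0.34 after siHAND2 (limma adjusted p 0.034) and by 0.37 in the combined knockdown (adjusted p 0.014), and its difference of 0.31 after siMYCN missed the threshold (adjusted p 0.061), but passed it with the replicate number as a block (adjusted p 0.023). After rescaling all 3 were called, at 0.32, 0.49 and 0.71, with limma adjusted p of 7.7e-04, 1.6e-05 and 1.2e-07. As deposited, the siHAND2 call was lost without any 1 of the 3 siCtrl libraries or siHAND2 replicate 1 or 2 (adjusted p up to 0.10), and the combined call without combined replicate 1 (0.21, adjusted p 0.075). An antisense gene, ABALON, overlaps BCL2L1. Whether the counting used strand is not given in the sources used here, so reads of the pair may be mixed, and ABALON itself was at 2.89 ± 0.504 CPM in siCtrl.

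MCL1, a short-lived survival protein needed by many cells, lies on chromosome 1 at 150547027 to 150552215 (hg19, minus strand). The listed gene ADAMTSL4-AS1 overlaps it on the same strand, so reads of the pair may be mixed. MCL1 was at 196, 209 and 207 CPM in siCtrl, 236, 256 and 240 after siMYCN, 209, 214 and 202 after siHAND2 and 231, 187 and 142 in the combined knockdown. The siMYCN samples were above all controls, and the other knockdowns overlapped the controls. As deposited no MCL1 difference from siCtrl was called: the log2 differences were 0.26, 0.03 and −0.15, with limma adjusted p of 0.14, 0.87 and 0.31. After rescaling all were called at 0.26, 0.19 and 0.21 (limma adjusted p 0.0041, 0.026 and 0.012), so the combined difference changed sign with the scaling. It also turned to 0.03 without combined replicate 3, the library with the smallest listed share, and was called at −0.32 without combined replicate 1 (adjusted p 0.011).

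BCL2L2 (hg19, chromosome 14, 23775971 to 23780969, plus strand) runs into the read-through gene BCL2L2-PABPN1 on the same strand, so its values are uncertain. It was at 8.08, 10.6 and 10.8 CPM in siCtrl and at 9.52, 9.64 and 10.2 after siMYCN, 9.30, 11.1 and 12.0 after siHAND2, and 14.4, 10.9 and 10.8 in the combined knockdown. The single knockdowns overlapped the controls, and the combined samples were just above them. No difference was called as deposited, with log2 values of 0.00, 0.13 and 0.27 and limma adjusted p of 0.98, 0.44 and 0.069. After rescaling the combined rise of 0.60 was called (adjusted p 3.7e-04), as was that of 0.33 on the deposited scale without combined replicate 3 (adjusted p 0.028).

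BAK1, the pore former, was lower in each knockdown. The gene lies on chromosome 6 at 33540323 to 33548071 (hg19, minus strand). It was at 14.5, 15.6 and 16.3 CPM in siCtrl and at 9.63, 10.4 and 8.21 after siMYCN. After siHAND2 it was at 8.48, 7.89 and 8.29 CPM, and in the combined knockdown at 7.73, 6.56 and 5.46. No knockdown sample reached the lowest control, the siMYCN and siHAND2 samples overlapped each other, and as deposited the combined samples lay below both. The group means were 61.0%, 53.1% and 42.6% of siCtrl as deposited and 61.3%, 59.4% and 54.1% after rescaling. BAK1 fell by 0.66, 0.84 and 1.13 in log2, with limma adjusted p of 1.1e-04, 3.3e-06 and 6.8e-09, and with rescaled changes of −0.65, −0.69 and −0.81 it was called in each comparison on that scale too. Its fall in the combined knockdown was short of the sum of the single falls after rescaling (interaction 0.53, limma adjusted p 0.015), a difference not called as deposited (0.37, adjusted p 0.21). Combined against siMYCN alone, the call on the deposited scale (−0.47, adjusted p 0.0018) was not kept after rescaling (−0.16, adjusted p 0.12).

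BOK, the pore former that does not answer to the anti-apoptotic members, was barely expressed. Its position is 242498146 to 242513554 on the plus strand of chromosome 2 (hg19), with an antisense gene, BOK-AS1, overlapping it. Its level was 0.510 ± 0.0684 CPM in siCtrl, 0.918 ± 0.337 after siMYCN, 0.750 ± 0.0888 after siHAND2 and 0.826 ± 0.202 in the combined knockdown, or an estimated 19 to 55 reads per library. All knockdown samples were above the highest control. When the filter on low genes was dropped, none of its log2 differences of 0.33, 0.21 and 0.27 passed the threshold (limma adjusted p 0.078, 0.23 and 0.087).

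Of the BH3-only genes, BMF rose in every knockdown. BMF protein is tethered to the cytoskeleton in healthy cells and is known for relaying loss of attachment. The gene lies on chromosome 15 at 40380091 to 40401086 (hg19, minus strand). It was at 7.13, 6.53 and 6.36 CPM in siCtrl and at 13.6, 12.9 and 13.1 after siMYCN. After siHAND2 it was at 13.0, 11.6 and 10.5 CPM, and in the combined knockdown at 19.4, 17.3 and 13.2. The highest control was below every knockdown sample, and the combined samples overlapped those of siMYCN but not those of siHAND2. The levels correspond to 198%, 175% and 249% of siCtrl, and to 199%, 195% and 316% after rescaling. BMF rose by 0.89, 0.72 and 1.19 in log2, with limma adjusted p of 4.0e-06, 3.7e-05 and 4.9e-09, and by 0.89, 0.86 and 1.51 after rescaling. The combined knockdown exceeded siHAND2 alone by 0.46 (adjusted p 0.0039; 0.65 after rescaling). It exceeded siMYCN alone by 0.29 as deposited, a limma call at adjusted p 0.042 that was lost in 8 of the 12 fits with 1 library left out, those without siCtrl replicate 2 or 3, any siMYCN replicate, siHAND2 replicate 2 or combined replicate 1 or 2 (adjusted p up to 0.16). The rescaled difference was 0.62 (adjusted p 4.9e-06).

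BCL2L11, which encodes BIM, the BH3-only protein that binds all anti-apoptotic members, moved the other way. Its position is 111878491 to 111926023 on the plus strand of chromosome 2 (hg19). It was at 8.48, 7.05 and 8.26 CPM in siCtrl, with means of 6.40 ± 0.455 after siMYCN, 5.86 ± 0.171 after siHAND2 and 4.51 ± 0.564 in the combined knockdown. All knockdown samples were below the lowest control, and the combined samples were lower than all others as deposited. BCL2L11 fell in log2 by 0.38 after siHAND2 (limma adjusted p 0.0091) and by 0.70 in the combined knockdown (adjusted p 6.5e-06). The siHAND2 call was lost without siCtrl replicate 1 (adjusted p up to 0.054). The difference of −0.27 after siMYCN was not called (adjusted p 0.069). After rescaling all 3 were called, at −0.26, −0.24 and −0.39.

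BID, which links death receptor signals to mitochondria after cleavage by caspase 8, lies on chromosome 22 at 18216906 to 18257432 (hg19, minus strand). The listed gene MIR3198-1 overlaps it on the same strand. BID was at 36.95, 32.1 and 34.5 CPM in siCtrl, 28.3, 27.0 and 27.7 after siMYCN, 26.9, 29.2 and 27.0 after siHAND2 and 22.5, 19.4 and 17.0 in the combined knockdown. The single knockdowns occupied the same range below the controls, and the combined samples lay below that range. BID fell in log2 by 0.31, 0.30 and 0.79, with limma adjusted p of 0.036, 0.031 and 9.3e-07. The siHAND2 fall was not called after rescaling (−0.15, adjusted p 0.053), whereas the rescaled values of −0.30 after siMYCN and −0.44 in the combined knockdown were. As deposited the siMYCN call was lost in 6 of the 12 fits with 1 library left out (without siCtrl replicate 1 or 3, any siMYCN replicate or siHAND2 replicate 2). The siHAND2 call was lost in 4, without siCtrl replicate 1 or 3 or siHAND2 replicate 1 or 3. The combined fall against siHAND2 alone was called on both scales (−0.49, limma adjusted p 0.0013; −0.29, adjusted p 0.0011 after rescaling).

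BAD, a BH3-only protein switched off by growth factor signalling through phosphorylation, went in opposite directions in the single knockdowns. It lies on chromosome 11 at 64037300 to 64052177 (hg19, minus strand), where GPR137 overlaps it on the other strand. BAD was at 13.2, 13.4 and 13.1 CPM in siCtrl, 18.4, 17.0 and 17.0 after siMYCN, 9.65, 10.8 and 8.69 after siHAND2 and 14.3, 11.9 and 10.1 in the combined knockdown. The siMYCN samples were all above and the siHAND2 samples all below the controls, and the combined samples overlapped the controls. BAD rose by 0.37 in log2 after siMYCN (limma adjusted p 0.016) and fell by 0.42 after siHAND2 (adjusted p 0.0059), with rescaled changes of 0.38 and −0.27, both called. As deposited the siMYCN call was lost without siCtrl replicate 3 or siMYCN replicate 1 (adjusted p up to 0.070). The combined difference was −0.13 as deposited and not called (adjusted p 0.32), and 0.20 and called after rescaling (adjusted p 0.016), a change of sign, and as deposited it was called without combined replicate 1 (−0.25, adjusted p 0.030). Directly compared, siMYCN was above siHAND2 for BAD by 0.79 (limma adjusted p 9.0e-06; 0.65 after rescaling) and for BCL2 by 1.75 (adjusted p 1.2e-10; 1.61 after rescaling).

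**Figure D2:**
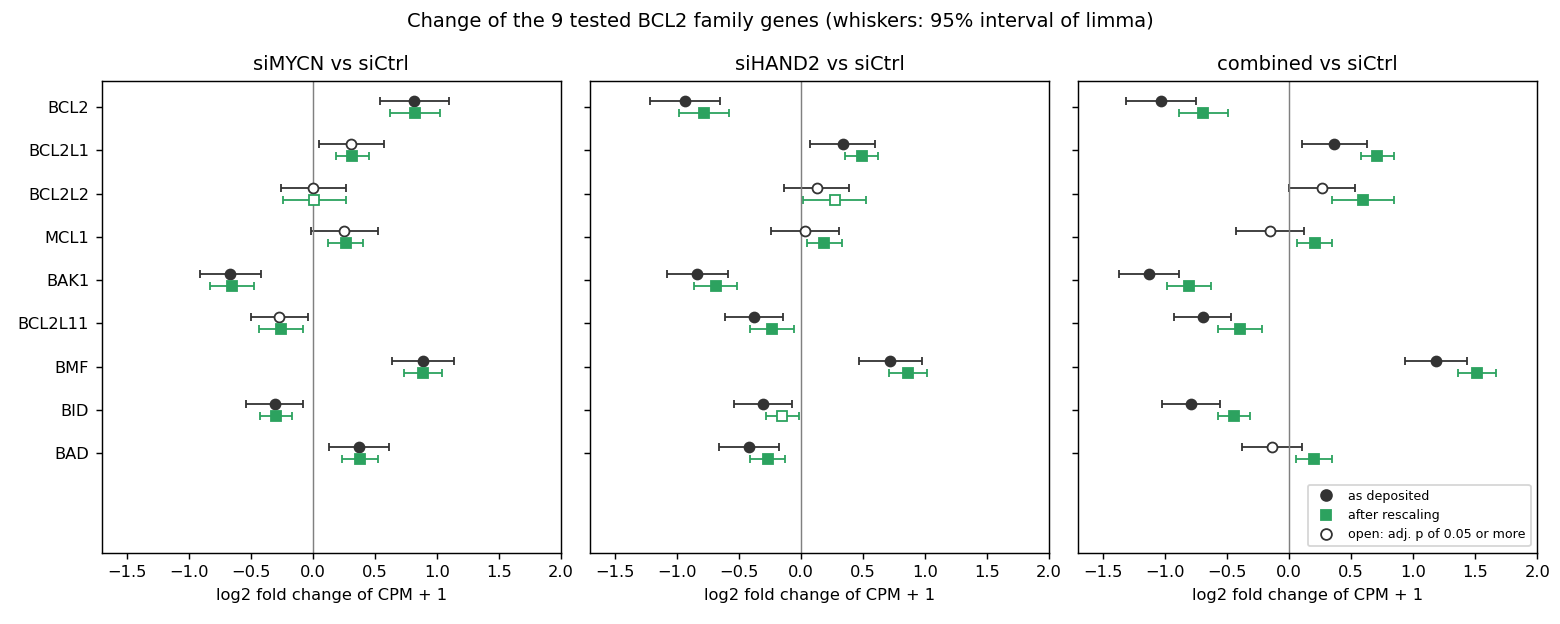
Log2 fold change of CPM + 1 against siCtrl (horizontal axes) for the 9 tested genes in the 3 knockdowns, as deposited (black circles) and after rescaling (green squares), with 95% intervals from limma; open symbols have an adjusted p of 0.05 or more. Rescaling shifts the combined values to the right, and for MCL1 and BAD it takes them across 0.

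Counted over the 9 tested members, siMYCN called 5, with 3 higher (BCL2, BMF, BAD) and 2 lower (BAK1, BID). Of all 12680 genes limma called 33.7% in that comparison, 17.4% higher and 16.3% lower. After rescaling it called 8 members, 5 higher and 3 lower, beside 47.9% of all genes (25.4% higher, 22.5% lower). The siHAND2 comparison called 7 members, 2 higher (BCL2L1, BMF) and 5 lower (BCL2, BAK1, BCL2L11, BID, BAD), beside 42.7% of all genes (12.3% higher, 30.4% lower). After rescaling it called 7, 3 higher and 4 lower, beside 50.8% (25.9% higher, 24.9% lower). The combined knockdown called 6 members, 2 higher (BCL2L1, BMF) and 4 lower (BCL2, BAK1, BCL2L11, BID), beside 67.4% of all genes (17.4% higher, 50.1% lower), a share of members near that of all genes. After rescaling it called all 9, with 5 higher and 4 lower, beside 70.7% (37.7% higher, 33% lower). The median log2 difference of the tested members was 0.26, −0.30 and −0.15 in the 3 comparisons, against 0.01, −0.14 and −0.28 for all tested genes. The 3 comparisons share the same siCtrl samples. Without combined replicate 3, the combined count was 7 as deposited and 9 after rescaling, beside 8617 and 8710 of all 12680 genes. The siMYCN count depended on single libraries, being 3 without siCtrl replicate 3 or siMYCN replicate 1 and 8 without combined replicate 1 or 3, where BCL2L1, MCL1 and BCL2L11 were called as well. The calls over all 12680 genes moved too, to 3292, 3343, 5491 and 5756 in these fits, in the same order. BCL2L11 was also called without siCtrl replicate 2. The siHAND2 count was 4 without siCtrl replicate 1, beside 4308 of all 12680 genes.

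Between the knockdowns, the combined against siMYCN comparison called 7 of the 9 members, BMF as higher and BCL2, MCL1, BAK1, BCL2L11, BID and BAD as lower, where 58.9% of all genes were called. After rescaling it called 5, with BMF, BCL2L1 and BCL2L2 higher and BCL2 and BAD lower, beside 56.7% of all genes. Combined against siHAND2 called 3, with BMF higher and BCL2L11 and BID lower, beside 40.3% of all genes, and 5 after rescaling, beside 49.7%. The BCL2L11 call (−0.32, limma adjusted p 0.026) was not among the latter and was lost without siHAND2 replicate 1 or 2 or combined replicate 2 or 3. Without combined replicate 1 the deposited count was 5, beside 6962 of all 12680 genes. The siMYCN against siHAND2 comparison called BCL2 and BAD alone as deposited, beside 35% of all genes, and BCL2L1 as well after rescaling (−0.17, limma adjusted p 0.039), beside 44.5%. After rescaling 2 members had a called interaction, BCL2 and BAK1, beside 6.14% of all genes. Without combined replicate 1, 4 members had one as deposited, beside 4443 of all 12680 genes.

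Ratios of a pair of genes within a sample do not depend on the scaling, so they were also taken, for 6 pairs chosen after the values had been seen and without a test. They are not corrected for transcript length, so only their differences between groups can be read, not whether they lie above or below 1. The ratio of BCL2 to BMF CPM was 4.75 ± 0.637 in siCtrl, 4.27 ± 0.435 after siMYCN, 1.38 ± 0.0654 after siHAND2 and 0.906 ± 0.0636 in the combined knockdown (SD, n = 3). It overlapped between siCtrl and siMYCN, where both genes rose, and was lower in all siHAND2 and combined samples. The ratio of BCL2L1 to BCL2 was 0.671 ± 0.0537, 0.471 ± 0.0543, 1.68 ± 0.0666 and 1.85 ± 0.164 in the same order, lower in every siMYCN sample and higher in every siHAND2 and combined sample than in any control. Within the BH3-only genes, BCL2L11 to BMF went from 1.19 ± 0.109 in siCtrl to 0.486 ± 0.0471, 0.505 ± 0.0434 and 0.274 ± 0.0206. All 3 combined samples lay below all others. The ratio of MCL1 to BAK1 was 13.2 ± 0.395 in siCtrl against 26.1 ± 2.77, 25.4 ± 1.53 and 28.2 ± 1.94, and that of BCL2L1 to BAK1 was 1.37 ± 0.0904 against 2.83 ± 0.321, 3.28 ± 0.266 and 4.21 ± 0.255. In both, every knockdown sample lay above every control. BAD to BCL2 was 0.422 ± 0.0342 in siCtrl, 0.312 ± 0.0379 after siMYCN, 0.606 ± 0.0435 after siHAND2 and 0.811 ± 0.102 in the combined knockdown.

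**Figure D3:**
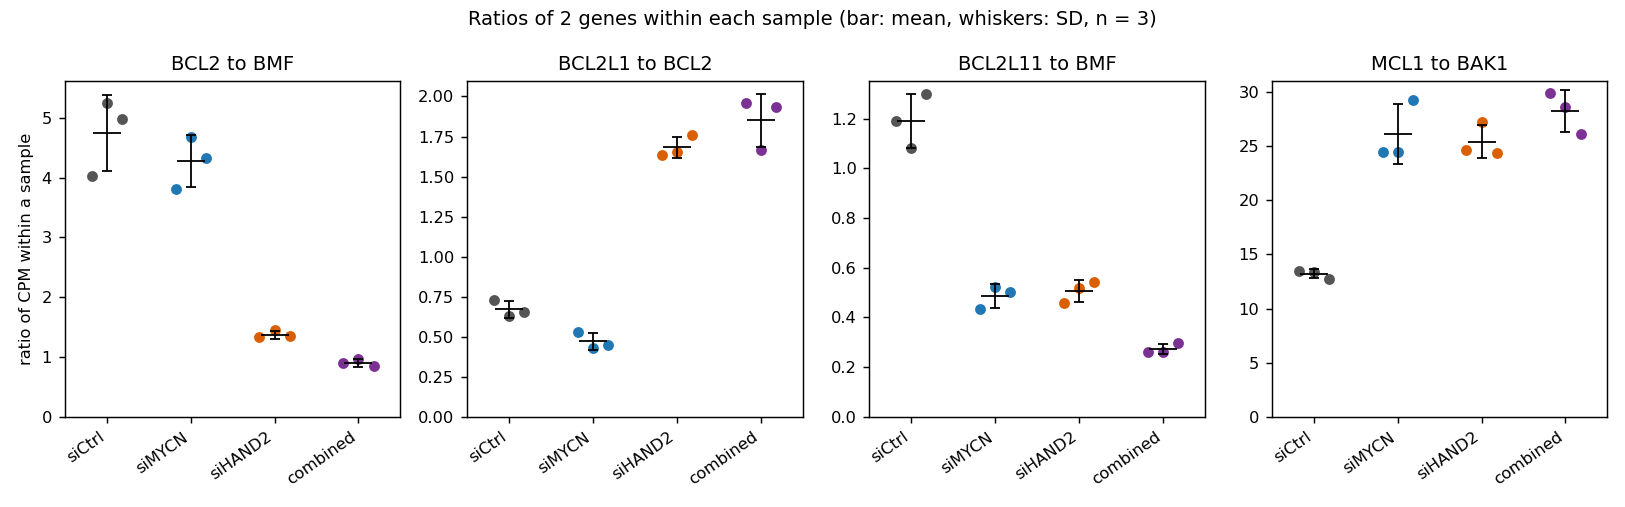
Ratio of the CPM of a pair of BCL2 family genes within each sample (vertical axes from 0) for 4 pairs; points are samples, bars means and whiskers SD, n = 3. The ratio of BCL2 to BMF is lower, and that of BCL2L1 to BCL2 higher, in every siHAND2 and combined sample than in any siCtrl or siMYCN sample; the ratios are not corrected for transcript length.

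Levels of different genes were compared per kilobase of the canonical transcript. In siCtrl MCL1 led with 51.7 ± 1.82 CPM per kb, followed by BID at 15.9, BAD at 14.3, BCL2L1 at 8.19, BAK1 at 7.13, BCL2 at 4.58, BCL2L2 at 2.79, BCL2L11 at 1.56, BMF at 1.42 and BOK at 0.194. In siCtrl BCL2L11 and BMF were the sole neighbours in that order whose samples overlapped. In the combined knockdown MCL1 still led at 47.3 CPM per kb, BMF had moved to the fifth place at 3.54 and BCL2 was in the eighth place at 2.20, while BAD, BCL2L1 and BID overlapped in turn, as did BMF, BCL2L2, BAK1 and BCL2. Of the summed level of the 4 anti-apoptotic genes per kilobase, MCL1 made up 76.9% ± 0.427 in siCtrl, 74.4% ± 0.532 after siMYCN, 76.9% ± 0.294 after siHAND2 and 74.1% ± 0.589 in the combined knockdown. BCL2 made up 6.81% ± 0.340, 9.86% ± 0.441, 3.39% ± 0.277 and 3.45% ± 0.324. BCL2L1 made up 12.2% ± 0.490, 12.4% ± 0.850, 15.2% ± 0.681 and 17.0% ± 0.0110. The share of BCL2 was thus higher in all siMYCN samples and lower in all siHAND2 and combined samples than in any control, and these shares do not depend on the scaling.

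Among the other BCL2 family genes, 14 were listed and 8 tested. As deposited limma called 1 higher and 2 lower after siMYCN, 2 and 2 after siHAND2, and 2 and 4 in the combined knockdown (after rescaling 3 and 4, 4 and 2, and 4 and 3). Of all genes limma called 33.7%, 42.7% and 67.4% as deposited and 47.9%, 50.8% and 70.7% after rescaling, in the same order. The BH3-only gene HRK, known from neurons deprived of trophic factor, rose from 1.99 ± 0.288 CPM to 5.31 ± 1.06, 4.36 ± 0.581 and 5.95 ± 1.74, with log2 changes of 1.07, 0.84 and 1.19. BBC3, which encodes PUMA, was at 2.27 ± 0.137 CPM in siCtrl and 2.62 ± 0.548 after siMYCN (log2 0.13, not called), and rose to 4.95 ± 0.146 after siHAND2 and 5.91 ± 1.57 in the combined knockdown. PMAIP1, which encodes NOXA, the BH3-only protein that favours MCL1, fell from 34.3 ± 2.11 CPM to 23.6 ± 1.09, 23.0 ± 0.967 and 17.6 ± 2.07. After rescaling PMAIP1 was at 69.3%, 74.9% and 65.9% of siCtrl. BAX, the other main pore former, was at 17.0 ± 0.739 CPM in siCtrl and fell to 9.08 ± 2.84 in the combined knockdown (log2 −0.87, limma adjusted p 5.6e-06; −0.55 after rescaling). Its differences of −0.28 after siMYCN and −0.31 after siHAND2 were not called as deposited unless combined replicate 1 or 3 was left out, and the first was called after rescaling (−0.27). BNIP3 fell after siMYCN (log2 −0.45) and in the combined knockdown (−0.60), the first call being lost without siCtrl replicate 3. BNIP1 fell after siHAND2 (−0.45) and in the combined knockdown (−0.42), but the latter was −0.11 and not called after rescaling. BCL2L13, BNIP3L and the untested BIK, BCL2A1, BCL2L10, BCL2L12, BCL2L14 and BCL2L15 complete the list, and BCL2A1 was not above the added constant in any sample.

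Downstream of the family, 29 genes of the mitochondrial pathway were listed and 27 tested. As deposited 6 were called higher and 4 lower after siMYCN, 5 and 9 after siHAND2, and 4 and 18 in the combined knockdown. Of all genes 17.4% were called higher and 16.3% lower, 12.3% and 30.4%, and 17.4% and 50.1%, in the same order. After rescaling the pathway counts became 8 and 8, 7 and 9, and 8 and 10, beside 25.4% and 22.5%, 25.9% and 24.9%, and 37.7% and 33% of all genes. The excess of lower genes in the combined knockdown, which all genes shared as deposited, thus depended on the scaling. The median log2 difference of the list was −0.09, −0.20 and −0.41 as deposited and −0.08, −0.04 and −0.05 after rescaling.

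Of the inhibitors of apoptosis and their antagonists, 3 of 6 tested genes were called lower in the combined knockdown as deposited and none higher, beside 50.1% and 17.4% of all genes. After rescaling 1 was called lower and 3 higher, beside 33% and 37.7% of all genes. The 1 that was lower was BIRC5, or survivin, which is also a mitotic protein. It was at 198 ± 13.2 CPM in siCtrl and fell to 97.6 ± 4.55 after siHAND2 and 53.9 ± 8.11 in the combined knockdown (54.9% and 34.7% of siCtrl after rescaling). HTRA2 fell by 0.37 in the combined knockdown as deposited, and its difference was −0.03 and not called after rescaling. All 5 outer membrane channels and released factors were called lower in the combined knockdown as deposited, where 50.1% of all genes were, and 4 after rescaling, where 33% were. Among them were ENDOG (log2 −1.66, −1.35 after rescaling) and AIFM1 (−1.06, −0.72 after rescaling).

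Of the 3 genes of MCL1 ubiquitin turnover, 2 were called lower in the combined knockdown as deposited and none higher, beside 50.1% and 17.4% of all genes. After rescaling 1 was called higher and none lower, beside 37.7% and 33% of all genes. The 1 that was higher was USP9X, which removes ubiquitin from MCL1 (log2 0.58 after rescaling, limma adjusted p 1.8e-05; 0.23 as deposited, adjusted p 0.12). HUWE1, which marks MCL1 for destruction, was at −0.38 in log2 and FBXW7 at −0.31, and after rescaling they were at −0.02 and 0.04 and not called. The HUWE1 call was also lost without siCtrl replicate 1 or 2 or combined replicate 1 or 3, and the FBXW7 call without siCtrl replicate 2. Of 6 transcription factors known to act on BH3-only genes, 3 were called higher and 3 lower in the combined knockdown on both scales. The shares of all genes were 17.4% higher and 50.1% lower as deposited, and 37.7% and 33% after rescaling. JUN rose by 1.59, 1.40 and 2.20 in log2 in the 3 knockdowns, from 18.7 ± 1.01 CPM to 92.6 ± 28.7 in the combined knockdown. DDIT3, a factor of the stress response of the endoplasmic reticulum, rose by 0.51, 0.55 and 2.10, from 2.84 ± 0.280 to 15.5 ± 1.62 CPM.

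**Figure D4:**
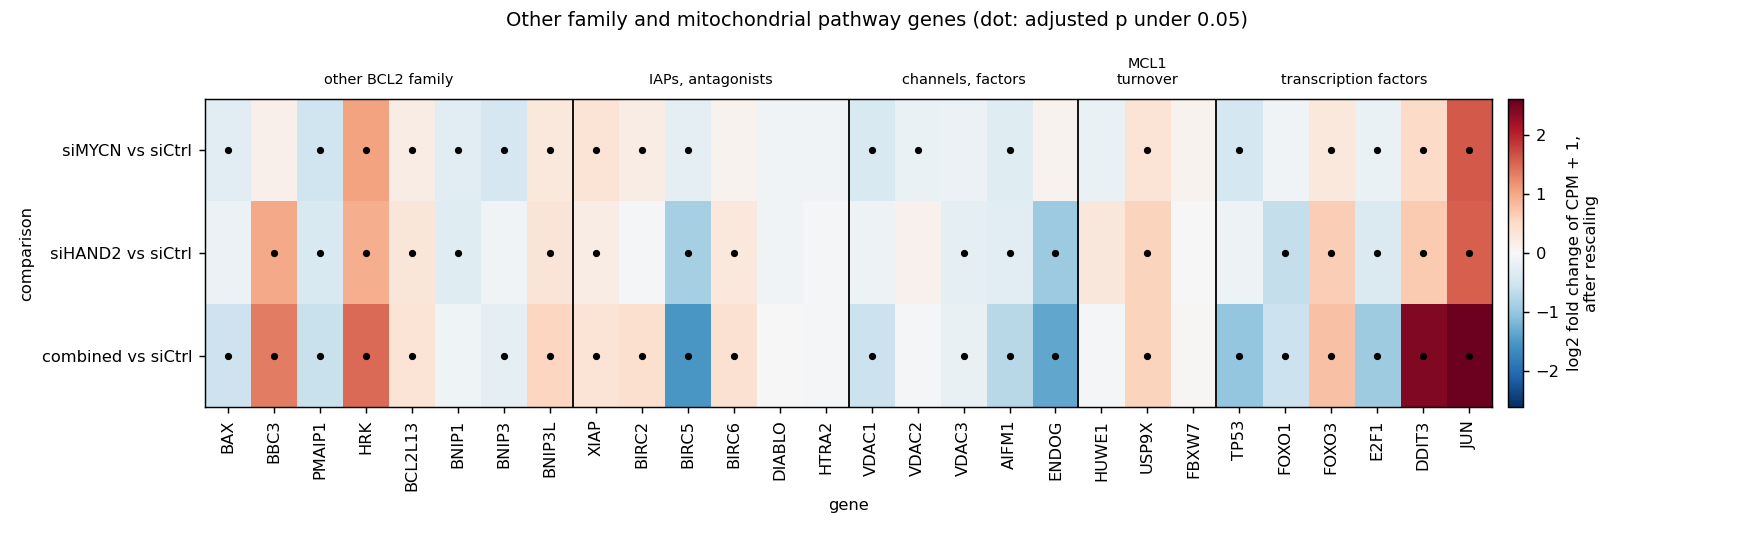
Log2 fold change of CPM + 1 against siCtrl after rescaling (colour) for the 8 tested genes of the rest of the BCL2 family and the tested genes of 4 groups of the mitochondrial pathway (columns) in the 3 knockdowns (rows); a dot marks a limma adjusted p under 0.05. JUN and DDIT3 show the deepest red and BIRC5 and ENDOG the deepest blue in the combined knockdown.

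The profiles most like those of the 2 members that differed most over the groups were found among all tested genes, by the mean absolute difference in log2(CPM + 1), centred on siCtrl, over the 12 samples. For BCL2 they were OLFML3 (0.122), ADAMTS9 (0.135) and FAM167A (0.139), which had log2 differences of 0.79, 0.80 and 0.78 after siMYCN and of −1.09, −1.04 and −1.10 after siHAND2. In the combined knockdown these genes were at −1.08, −1.28 and −0.94. For BMF they were KIF3C (0.0458), ENO2 (0.055) and NPR2 (0.0717), with combined differences of 1.23, 1.08 and 1.07. These genes were picked for their likeness, so their values are a description.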

How the data were processed

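RNA from 12 samples of IMR32 cells, 3 in each of 4 siRNA groups, was analysed from a table of library-scaled read counts (CPM) that the authors deposited. Alignment used STAR 2.5.1 to hg19, and Partek was also used, per the submitters' processing notes; the counting tool, annotation, strand use and filters are not given in the sources used here. In the deposited CPM every value includes an added 0.0001, the lowest value listed. Steps in the low values gave depths of 31.6 to 64.2 M reads, but only 88.5% to 90.1% of values under 20 reads came out whole within 0.05 reads, so no count model was used. No replicate pair agreed within sampling noise (mean chi-square per gene 3.35 to 37.8), so each sample counted as 1.

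The 12680 of 27514 genes whose mean CPM reached 1 were tested on log2(CPM + 1) with limma 3.58.1 in R 4.3.3 (lmFit, eBayes with trend), all 12 samples in 1 fit with 8 residual degrees of freedom. P-values were two-sided, adjusted by Benjamini-Hochberg over all genes in each of 7 contrasts, and called under 0.05. The pseudocount understates changes of low genes. Single values per sample were compared by exact permutation tests. The procedure was checked on simulated data with independent noise of equal spread in every group. These data had no library-wide shift and no pairing, so the check does not cover those features. The rescaled values use median-ratio size factors from the 10192 genes whose mean CPM reached 5. Other alternatives were 0.1 as the pseudocount, dropping the filter, raising it to 5 CPM, only the groups compared, equal sums over listed genes, the replicate number as a block, and each library left out. hg19 positions and transcript lengths are from GENCODE v44 lifted to GRCh37.

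All 10 members were named, MYCN and HAND2 as checks, other family genes with values where called against siCtrl, and of each pathway group the 2 called genes with the largest combined change. The overlapping genes and USP9X were named after their values were seen. Some listed genes, and the apoptosome and caspase group of the pathway, are not reported here. The members and lists were chosen with earlier results of these data known. The labels number the libraries in order of replicate number, across all 4 groups, but do not say whether replicate numbers pair the samples. The correlation of same-numbered samples exceeded 0.1 in every pair of siCtrl with siMYCN and of siMYCN with siHAND2. It did not in every pair of the other groups, so no block was used in the results given first.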

Additional observations from a re-analysis of the deposited data

Results flagged for a closer look

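Of the members and the pathway genes named, 5 had a combined knockdown that differed from the sum of the single knockdowns on the log2(CPM + 1) scale by limma's test of that difference, with Benjamini-Hochberg adjustment over all genes. Of all 12680 genes 4.01% were called in that test. The pathway genes were named for a large combined change, which is a term of this difference, so their number is only a description. Of the 6 transcription factors tested, 1 was called above the sum and 2 below it, and not all of these are named. BCL2 differed from the sum by −0.92 (adjusted p 0.0070), with its rise after siMYCN absent in the combined knockdown. BIRC5 differed by −0.59 (adjusted p 0.038) and ENDOG by −0.65 (adjusted p 0.029), both lower than the sum. JUN differed by −0.78 (adjusted p 0.033), its combined rise being smaller than the sum of the single rises. DDIT3 differed by 1.04 (adjusted p 3.0e-04), its combined rise exceeding the sum. After rescaling the differences were −0.74, −0.41, −0.50, −0.59 and 1.23 in the same order. The listed share of reads was lowest in the combined knockdown, and its part in these differences beyond the rescaled values was not tested. MYCN was also lower in the combined knockdown than after siMYCN alone, and the part of unequal knockdown was not tested either.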

How the results depend on the processing

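Over all alternatives, 958 values of members were recomputed: 835 kept their direction and side of the threshold, 52 lost a call, 54 gained one and 17 changed sign. The number of members called after siMYCN went from 5 to 8 with only the groups compared, with either rescaling, and with rescaling and the replicate block, beside 6071 to 6963 of all 12680 genes. Combined against siHAND2 went from 3 to 5 with the replicate block, with either rescaling and with both, beside 5839 to 6700 of all 12680 genes. The siMYCN against siHAND2 count went from 2 to 4 with rescaling and the block, beside 6069 of all 12680 genes. The interaction count went from 1 to 0 by limma with no filter, where 154 of all 21125 genes were called. It went to 2 with either rescaling or with rescaling and the block, beside 779 to 1262 of all 12680 genes. With 1 library left out, the counts ranged from 3 to 8 (siMYCN), 4 to 7 (siHAND2), 6 to 7 (combined), 6 to 8 (combined against siMYCN), 2 to 5 (combined against siHAND2), 2 to 3 (siMYCN against siHAND2) and 1 to 4 (interaction, the 4 beside 4443 of all 12680 genes). Calls over all genes ranged in the same order from 3202 to 5756, 4303 to 6941, 7833 to 9340, 6414 to 8960, 3905 to 6962, 3261 to 6082 and 263 to 4443. After rescaling, an alternative chosen after seeing the data, the member counts ranged from 7 to 8, 5 to 8, 8 to 9, 4 to 6, 4 to 5, 2 to 4 and 2 to 3. Beside them stood 5206 to 6511, 5478 to 6878, 8382 to 9030, 6225 to 7357, 5326 to 6308, 4613 to 6121 and 413 to 1444 of all 12680 genes. The replicate block alone gave 6, 7, 7, 7, 5, 2 and 1 members, beside 4926, 6140, 8951, 8069, 5839, 5163 and 1282 of all 12680 genes. It added limma calls for BCL2L1 after siMYCN (adjusted p 0.023), BCL2L2 in the combined knockdown (0.046) and, against siHAND2, BAK1 and BAD in the combined knockdown (both 0.033). Correlations of same-numbered deviations ran from −0.192 to 0.44, 11 of 18 exceeded 0.1, and a sample correlated best with its own number in 23 of 36 choices, so some pairing is possible but was not established.

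Changes of sign were as follows, and their cause was not tested. BCL2, combined vs siHAND2, became 0.089 with median ratio rescaling with or without the block and 0.106 with listed-gene sums, and ranged from −0.210 to 0.0963 with 1 library left out. MCL1, combined vs siCtrl, became 0.205 and 0.196 with the 2 rescalings and ranged from −0.319 to 0.0281. BAD, combined vs siCtrl, became 0.199 and 0.190 with the rescalings, and FBXW7, combined vs siCtrl, 0.0380 and 0.0286. With 1 library left out, BCL2L1 ranged from −0.102 to 0.224 (combined vs siMYCN), from −0.128 to 0.197 (combined vs siHAND2) and from −0.0828 to 0.0083 (siMYCN vs siHAND2), BCL2L2 from −0.118 to 0.0685 (siMYCN vs siCtrl) and HUWE1 from −0.0306 to 0.273 (siHAND2 vs siCtrl). None of these was called in the fits where the sign changed with a library left out. Depth limits BOK most.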
